A study of Macaca mulatta with 12 samples.

Results

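miR-9 and miR-124 are microRNAs (miRNAs) that are known as markers of neurons and neural progenitors. They were followed here in 12 small RNA sequencing profiles of 8 tissues of Macaca mulatta, the rhesus macaque. The pre-miRNAs were chosen by name, as those of the study's annotation whose names begin with mml-mir-9- or mml-mir-124a. Among 832 readable entries there were 6 of them, namely mml-mir-9-1, mml-mir-9-2, mml-mir-9-3, mml-mir-124a-1, mml-mir-124a-2 and mml-miR-124a-3. Identical mature sequences of different copies were treated as 1, so that the 6 pre-miRNAs gave 5 of the 1219 mature sequences. All profiles came from wild-type animals aged 36 months that received no treatment. The tissues were taken from 2 animals, and which profile belongs to which animal is not given in the sources used here. There were 2 profiles each of small intestine, large intestine, muscle and kidney, and 1 each of occipital lobe, spinal cord, liver and lung. The occipital lobe, the visual part of the cerebral cortex, and the spinal cord are called the neural tissues below, and each is therefore known from a single library.

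A miRNA gene is transcribed as a longer RNA that is cut to a hairpin, the pre-miRNA, from which Dicer releases a duplex of a 5’ and a 3’ arm. One strand is loaded into an Argonaute protein and represses mRNAs that pair with its seed, the bases from position 2 to 8, and the other strand is mostly degraded. miR-124 is abundant in differentiated neurons, where it represses genes used by other cell types. miR-9 is found in neural progenitors and neurons, and both of its arms are known to have targets in REST signalling.

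The mature sequences that carry the results are given below from 5’ to 3’ with the seed in capitals, because the results differ between the arms and between the start positions of reads.
miR-9-5p: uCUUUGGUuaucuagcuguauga
miR-9-3p: aUAAAGCUagauaaccgaaagua
miR-9-3-3p: cUCAAGCUagauaaccgaaagu
miR-124a-3p: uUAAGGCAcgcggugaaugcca
miR-9-5p is shared by all 3 miR-9 pre-miRNAs, and miR-9-3p by mml-mir-9-1 and mml-mir-9-2. The 3’ arm of mml-mir-9-3 has its own sequence, called miR-9-3-3p here, and its seed differs from that of miR-9-3p. miR-124a-3p is shared by all 3 miR-124a pre-miRNAs. The fifth mature sequence, the annotated 5’ arm of miR-124a, is described with its reads below.

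The pre-miRNAs of miR-9 show how similar the copies are, and the mature miRNAs are given in capitals.
mml-mir-9-1: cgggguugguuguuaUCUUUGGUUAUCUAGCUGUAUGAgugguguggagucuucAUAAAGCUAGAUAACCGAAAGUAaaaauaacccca
mml-mir-9-2: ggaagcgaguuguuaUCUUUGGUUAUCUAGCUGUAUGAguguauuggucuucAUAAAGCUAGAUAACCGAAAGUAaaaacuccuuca
mml-mir-9-3: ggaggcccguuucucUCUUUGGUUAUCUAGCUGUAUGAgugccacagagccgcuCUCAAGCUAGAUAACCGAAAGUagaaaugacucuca
In the RefSeq annotation of the macaque assembly named T2T-MMU8v2.0, which is not the build of the study and is used for neighbours only, MIR9-1 overlaps the gene MIR9-1HG and lies between MEF2D and RHBG. MIR9-2 overlaps no other gene. MIR124A-1 lies between YTHDF3 and BHLHE22, and MIR124A-2 overlaps the long non-coding RNA LOC144330692.

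Each profile is a list of unique sequences with their read counts, as deposited and without normalization, and the lists add up to 22118095 to 25579064 reads. Reads without a mismatch to a pre-miRNA were counted for a mature miRNA if they started and ended at most 2 nucleotides away from its annotated ends. This assigned 35.9% to 68.4% of the reads of a profile. A read that fit more than 1 mature sequence was counted for each of them, so that summed levels can hold a read more than once. The unit of all levels is RPTM, the number of reads in every 10000000 valid reads, and 1 read stands for 0.391 to 0.452 RPTM and 3 reads, the limit that a count of 0 allows, for 1.17 to 1.36 RPTM. Marker miRNAs were compared with the tissue labels. The summed level of the muscle miRNAs (miR-1, miR-133 and others, 15 sequences) was 267249 and 303228 RPTM in muscle, and at most 1860 RPTM in every other profile. miR-122, the miRNA of hepatocytes, reached 7739 RPTM in liver and at most 4.37 RPTM elsewhere. The summed level of the epithelial miR-200 family was 24.3 and 11.3 RPTM in occipital lobe and spinal cord, and between 58.4 and 11565 RPTM in the 10 other profiles.

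miR-9-5p was one of the most abundant miRNAs of both neural tissues. It had 383871 RPTM (883282 reads) in occipital lobe, where it ranked 4 among the 1219 mature sequences read and took 6.84% of the assigned reads. In spinal cord it had 261318 RPTM (624722 reads), ranked 6 and took 4.51% of the assigned reads. The profiles of the small intestine followed with 939 and 988 RPTM, and those of the large intestine with 643 and 840 RPTM. Muscle had 294 and 213 RPTM, kidney 235 and 169 RPTM, liver 233 RPTM and lung 221 RPTM. Thus the lower of the neural profiles was 265 times as high as the highest other profile, and yet reads of miR-9-5p were found in all 12 profiles.

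miR-9-3p, the other arm, was far less abundant. It had 688 RPTM (1583 reads) in occipital lobe and 855 RPTM (2044 reads) in spinal cord. The 10 other profiles held 16 of its reads in total. Of these, 14 lay in the intestine, with 7 and 3 reads in small intestine and 4 and 0 reads in large intestine, and 1 each lay in lung and in muscle. The lower neural profile was 233 times as high as the highest other profile, the small intestine profile with 2.95 RPTM. No read was found for miR-9-3-3p in any profile, which in each of them allows a level of up to the 1.17 to 1.36 RPTM given above.

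miR-124a-3p had 10508 RPTM (24179 reads, rank 37) in occipital lobe and 3278 RPTM (7837 reads, rank 70) in spinal cord. In the other profiles it was near the limit of the depth, with 2 to 18 reads each. Its level was 7.26 RPTM in liver, 4.30 and 3.72 RPTM in kidney, 4.07 and 3.83 RPTM in large intestine, 3.80 and 3.27 RPTM in small intestine, 3.75 and 0.871 RPTM in muscle, and 3.50 RPTM in lung. The lower neural profile was 452 times as high as that of liver. Exact Poisson intervals of the 10 non-neural values are wide, for example from 4.30 to 11.5 RPTM for the 18 reads in liver, and those of neighbours in this order overlap. Such intervals cover counting error only, because the PCR reads carry no molecular identifiers.

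**Figure D1:**
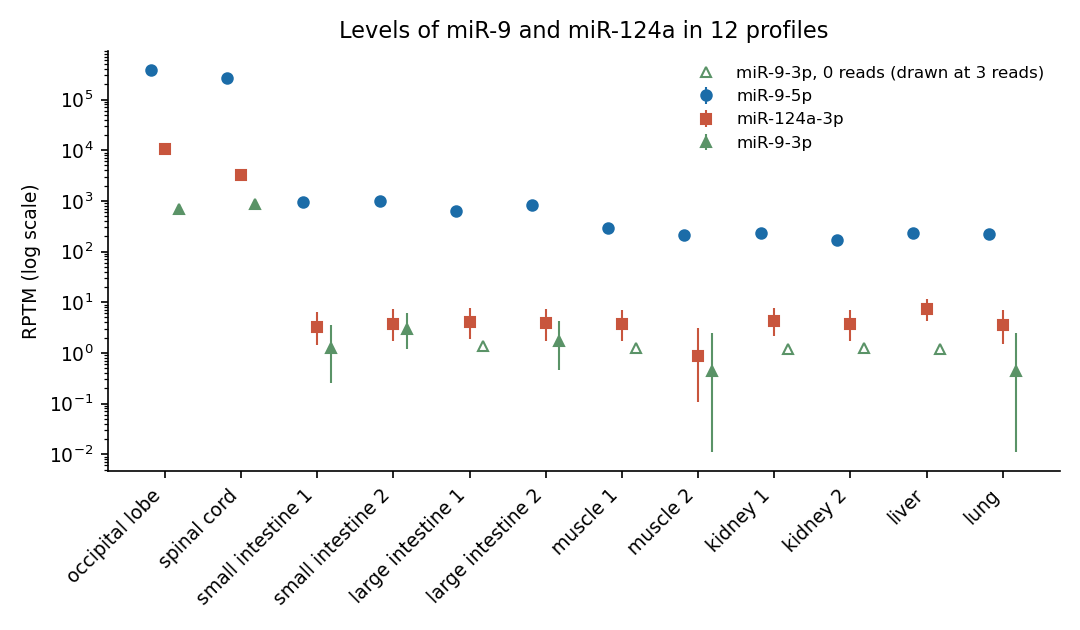
Levels of miR-9-5p, miR-124a-3p and miR-9-3p (RPTM, log scale) in the 12 profiles, with exact Poisson intervals (confidence level 95%) as bars. Open triangles are profiles with 0 reads of miR-9-3p, drawn at the level of 3 reads, and all 3 miRNAs are highest in occipital lobe and spinal cord, where miR-9-5p reached 383871 and 261318 RPTM.

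The neural tissues were compared with the other tissues by edgeR's quasi-likelihood test on the counts of the mature sequences whose mean reached 5 RPTM and whose standard deviation reached 1. This filter kept 371 sequences, among them miR-9-5p, miR-9-3p and miR-124a-3p but neither miR-9-3-3p nor the 5’ arm of miR-124a. miR-9-5p also passes this filter in the 10 other profiles alone. miR-9-3p and miR-124a-3p pass it only through their levels in the neural tissues, so that they had to differ, and the number of members that differ is no support for a difference. All 3 were higher, with both neural profiles above the 10 others. Of all 371 sequences, 43.7% were higher with an adjusted p under 0.05, and likewise 43.7% had both neural profiles above the 10 others. The log2 fold change of miR-9-5p was 8.75 (standard error 0.38, edgeR adjusted p = 5.0e-09, 2 profiles against 10). It was 10.24 (0.66, edgeR adjusted p = 1.3e-07) for miR-9-3p, where it rests on profiles with 0 to 7 reads and depends on the prior count of the fit, and 9.77 (0.53, edgeR adjusted p = 1.8e-08) for miR-124a-3p. By the size of the fold change, miR-9-3p ranked 1, miR-124a-3p ranked 3 and miR-9-5p ranked 6 among the 371. This order depends on how reads are counted. With identical reads only, the log2 fold change was 7.80 for miR-9-3p, 8.50 for miR-9-5p and 9.89 for miR-124a-3p. The median log2 fold change of all 371 was 0.89 with TMM factors and 1.97 when the valid reads served as scale. Relative to this median, the change of miR-9-5p was 7.86 with TMM factors and 7.87 with the valid reads. The p-values measure the spread between these profiles only, and in the neural group this is the spread between 2 different tissues. In tissue samples, a smaller number of neurons and less of a miRNA per neuron cannot be told apart.

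miR-9-5p was 1.47 times as high in occipital lobe as in spinal cord in RPTM, and miR-124a-3p 3.21 times. miR-9-3p was instead 0.805 times as high. The number of miR-9-5p reads per read of miR-124a-3p was therefore 36.5 in occipital lobe and 79.7 in spinal cord. With 1 profile on each side, the test had to take the spread from the 4 tissues with 2 profiles. The log2 fold change of occipital lobe over spinal cord was 1.03 for miR-9-5p (standard error 0.50, edgeR adjusted p = 0.26) and 0.16 for miR-9-3p (0.84, edgeR adjusted p = 0.93). It was 2.15 for miR-124a-3p (0.61, edgeR adjusted p = 0.071). Thus none of the 3 passed the threshold. Among all 371 sequences, 0.539% were higher and 3.23% lower in occipital lobe.

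miR-124a-3p lay close to the threshold, and its call depended on the settings. It passed with DESeq2 (adjusted p = 0.031), without the filter on low values (edgeR adjusted p = 0.0098), without muscle 1 (edgeR adjusted p = 0.020) and without muscle 2 (edgeR adjusted p = 0.032). In the other settings it did not, with an edgeR adjusted p of up to 0.39 with identical reads only, where the log2 fold change was 1.59, and up to 0.17 without single profiles (large intestine 2). Its direction was the same in every setting tried. The direction of miR-9-3p changed between settings, with a log2 fold change of -0.31 when the valid reads served as scale. Relative to the median of all 371 sequences, which moved from 0.11 to -0.35 between these scales, the values were 2.05 and 2.03 for miR-124a-3p, 0.92 and 0.90 for miR-9-5p, and 0.05 and 0.04 for miR-9-3p.

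**Figure D2:**
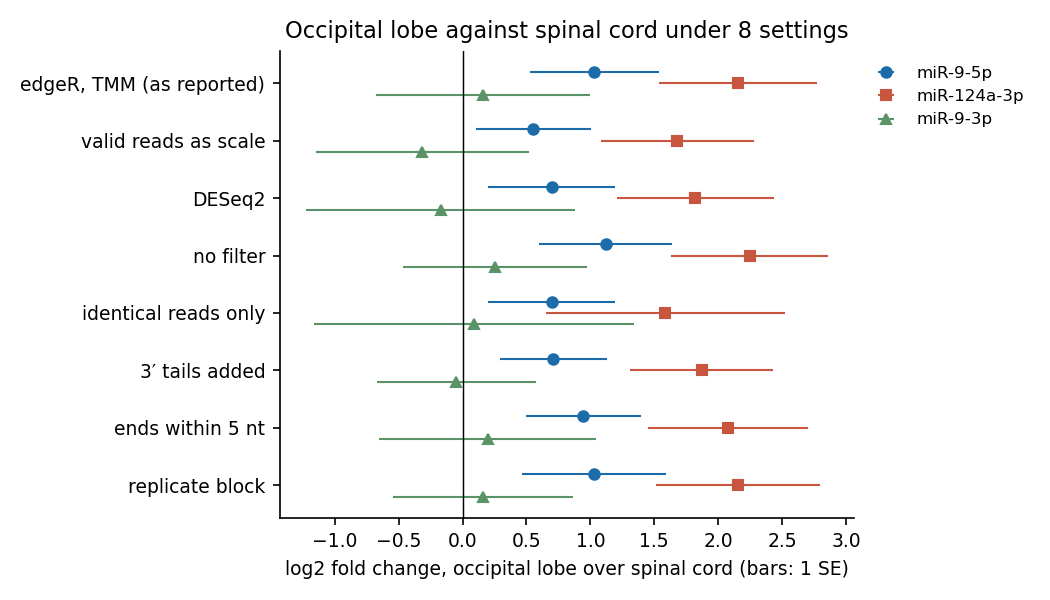
Log2 fold change of occipital lobe over spinal cord for miR-9-5p, miR-124a-3p and miR-9-3p under 8 settings, with 1 standard error as bars. miR-124a-3p lies to the right of 0 throughout, with 2.15 in the fit reported, while the values of miR-9-3p lie on both sides of 0.

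The other miRNAs known from neurons, namely miR-128, miR-129, miR-132, miR-137, miR-138, miR-153 and miR-212, had 18 mature sequences, of which 13 passed the filter. Of these, 5 pass it only through the neural profiles and had to be higher there, and 8 pass it in the 10 other profiles alone. All 13 were higher in the neural tissues, as were 43.7% of the 371 sequences. Their median log2 fold change was 5.31 beside the 0.89 of all sequences, and it includes the 5 that had to be higher. The largest change was that of mml-mir-129-2-3p (8.25, standard error 0.45), which is among those 5. It had 1077 and 859 RPTM in occipital lobe and spinal cord and elsewhere at most 16.2 RPTM. The smallest change was that of mml-mir-212-3p (2.27, standard error 0.40), which is among the 8. None of the 13 passed the threshold between occipital lobe and spinal cord, where their median was 0.86 and the values reached from -0.52 for mml-miR-138-1-5p to 1.50 for mml-mir-128b-5p. The miRNAs known from oligodendrocytes, the myelin-forming cells, lay on the other side. Of 6 mature sequences of miR-219 and miR-338, 4 passed the filter, 2 of them (mml-mir-219-1-5p and mml-mir-219-2-3p) only through the neural profiles. The 4 were higher in the neural tissues, beside 43.7% of all sequences, from 4.11 for mml-mir-338-5p to 10.22 for mml-mir-219-2-3p. Between occipital lobe and spinal cord their median was -1.91, from -2.51 for mml-mir-219-2-3p to -0.96 for mml-mir-338-3p. Only mml-mir-219-2-3p passed the threshold, at 2329 RPTM in the occipital lobe against 18457 RPTM in the spinal cord (standard error 0.58, edgeR adjusted p = 0.038). Without large intestine 1 its adjusted p was 0.11. The summed levels of the oligodendrocyte miRNAs were 5358 and 27365 RPTM in occipital lobe and spinal cord, and those of the neuronal miRNAs 101880 and 55795 RPTM. Most of the neuronal sums lies in mml-mir-128a-3p (46860 and 23264 RPTM) and mml-mir-128b-3p (47190 and 24828 RPTM). Reads that fit both of these count for both, so that the neuronal sums are too high by an amount not determined here. The part of cell composition in the values of miR-9 and miR-124a was not tested.

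The intestinal wall holds the enteric nervous system, and the background of both miRNAs in the other organs was compared with this in view. miR-9-5p was higher in all 4 intestine profiles than in the 6 profiles of kidney, muscle, liver and lung. Its mean was 852 ± 152.6 RPTM (SD, n = 4) in the intestine and 227 ± 40.5 RPTM (SD, n = 6) in the others. The difference in mean log2(RPTM + 1) was 1.90 (exact permutation test, two-sided, p = 0.0095, the smallest that 210 arrangements can give, adjusted p = 0.019 over the 2 miRNAs compared). The test takes each profile as 1 unit, although small intestine, large intestine, kidney and muscle each gave 2 profiles. Its p-value therefore does not measure the spread between tissues. Among all 371 sequences, 4.04% had the 4 intestine profiles above the 6 others. miR-124a-3p did not show this pattern. Its mean was 3.74 ± 0.33 RPTM (SD, n = 4) in the intestine and 3.90 ± 2.04 RPTM (SD, n = 6) in the others, and the groups overlapped with a difference of 0.07 (exact permutation test, two-sided, p = 0.94). With 35 and 57 reads in the groups, small differences were not detectable at this depth. Of the 16 reads of miR-9-3p outside the neural tissues, 14 lay in the intestine and 2 in the 6 other profiles.

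Among the intestine profiles, small intestine (963 ± 34.4 RPTM, SD, n = 2) lay above large intestine (741 ± 139 RPTM, SD, n = 2). Kidney (202 ± 46.3 RPTM, SD, n = 2), lung (221 RPTM), liver (233 RPTM) and muscle (254 ± 57.3 RPTM, SD, n = 2) followed each other within the spread of the paired tissues. The neuronal miRNAs named above did not move together. Of the 13 past the filter, 5 had a higher mean in the intestine than in the 6 other profiles and 8 a lower one. Among the 5, mml-mir-129-1-5p had 9.95 to 17.0 RPTM in the intestine and 0.834 to 10.5 RPTM in the 6 others. For mml-mir-212-3p the ranges were 73.7 to 131.6 and 20.5 to 118 RPTM, and both examples were chosen after their values were seen. Of the 13, 0 had every intestine profile above the 6 others, and 2 had every intestine profile below them. These were mml-mir-128a-3p (176 to 228 RPTM against 307 to 4019 RPTM) and mml-mir-128b-3p (173 to 231 RPTM against 282 to 4645 RPTM). The summed levels of the neuronal miRNAs were 532 to 711 RPTM in the intestine and 839 to 8564 RPTM in the others. There mml-mir-128b-3p reached 4645 RPTM and mml-mir-128a-3p 4019 RPTM, and reads that fit both count for both. The oligodendrocyte miRNAs summed to 104 to 246 RPTM in the intestine and 31.8 to 581 RPTM in the 6 others, and the epithelial miRNAs to 3849 to 11565 RPTM and 58.4 to 10664 RPTM. Their part in the level of miR-9-5p was not tested.

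The background of both miRNAs was also set against the neural tissues. miR-9-5p in the 10 other profiles was 0.0440% to 0.257% of its level in occipital lobe, and miR-124a-3p 0.00829% to 0.0691%. There were 32.1 reads of miR-9-5p per read of miR-124a-3p in liver, 54.5 and 45.4 in kidney and 63.1 in lung, beside the 36.5 in occipital lobe and 79.7 in spinal cord. In muscle the numbers were 78.3 and 245, the latter from 2 reads of miR-124a-3p. They were 287 and 260 in small intestine, above all other profiles. In large intestine they were 158 and 220, above all profiles outside the intestine but that muscle profile. According to the study's methods the libraries were multiplexed, and the part of reads from other libraries in these low values was not tested.

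**Figure D3:**
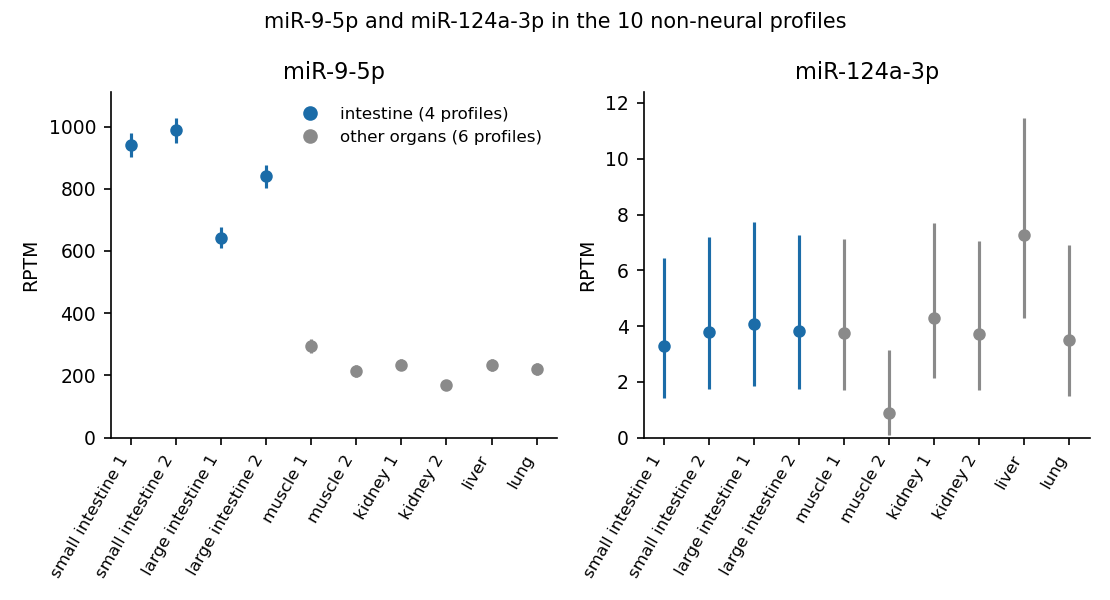
Levels of miR-9-5p and miR-124a-3p (RPTM, linear axes from 0) in the 10 non-neural profiles, with exact Poisson intervals (confidence level 95%) as bars. The 4 intestine profiles lie at 643 to 988 RPTM of miR-9-5p, above the 169 to 294 RPTM of the 6 others, whereas the values of miR-124a-3p overlap between 0.871 and 7.26 RPTM.

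The 5’ arm of miR-9 was the main product in every profile. There were 558 reads of miR-9-5p per read of miR-9-3p in occipital lobe (exact binomial interval 531 to 587) and 306 in spinal cord (293 to 319). Both ratios depend on the window of read ends. With ends within 5 nucleotides the 5’ and 3’ arms had 901862 and 1956 reads in occipital lobe, and 637361 and 2322 in spinal cord. Both ratios are then lower, with occipital lobe still above spinal cord. The interval of occipital lobe lies above that of spinal cord, which covers counting error only. Such a bias is not unusual. Of the pre-miRNAs with at least 100 reads on both arms together, 57 of 167 in occipital lobe and 74 of 195 in spinal cord had an arm ratio at least as uneven as that of miR-9. In the 10 other profiles together the ratio was 708 (436 to 1238), with 574 (342 to 1050) in the intestine and 1643 (454 to 13573) in the 6 others, the last from 2 reads of the 3’ arm. The profiles without a read of miR-9-3p allow only a lower limit, which at 3 reads is 136 in kidney 2 and 474 in large intestine 1.

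With 0.5 reads added to each arm, the mean log2 ratio was 8.69 in the 2 neural profiles and 9.52 in the 10 others, a difference of -0.83 (exact permutation test, two-sided, p = 0.33, where the smallest p of 66 arrangements is 0.030). In the 5 profiles without a read of miR-9-3p this ratio is set by the added reads and by the depth of the 5’ arm alone, and with 1 read added the difference was -0.20 (exact permutation test, two-sided, p = 0.82). The test therefore says little about the ratio outside the neural tissues. By counting error alone, the ratio of spinal cord lay below that of the 10 other profiles together and below the lower limit of large intestine 1, while that of occipital lobe lay within the interval of the 10 others. When only reads identical to the annotated sequences were counted, the difference was 2.53 (exact permutation test, two-sided, p = 0.030). The most frequent read of miR-9-3p is 1 nucleotide shorter than the annotation and was then not counted. The level of miR-9-3p was then 32.6 and 34.3 RPTM in occipital lobe and spinal cord and 0.422 RPTM in small intestine 2. No such read was left in the other non-neural profiles. There the ratio is again set by the added reads and the depth of the 5’ arm, so that the sign of this difference is no result about the arms.

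**Figure D4:**
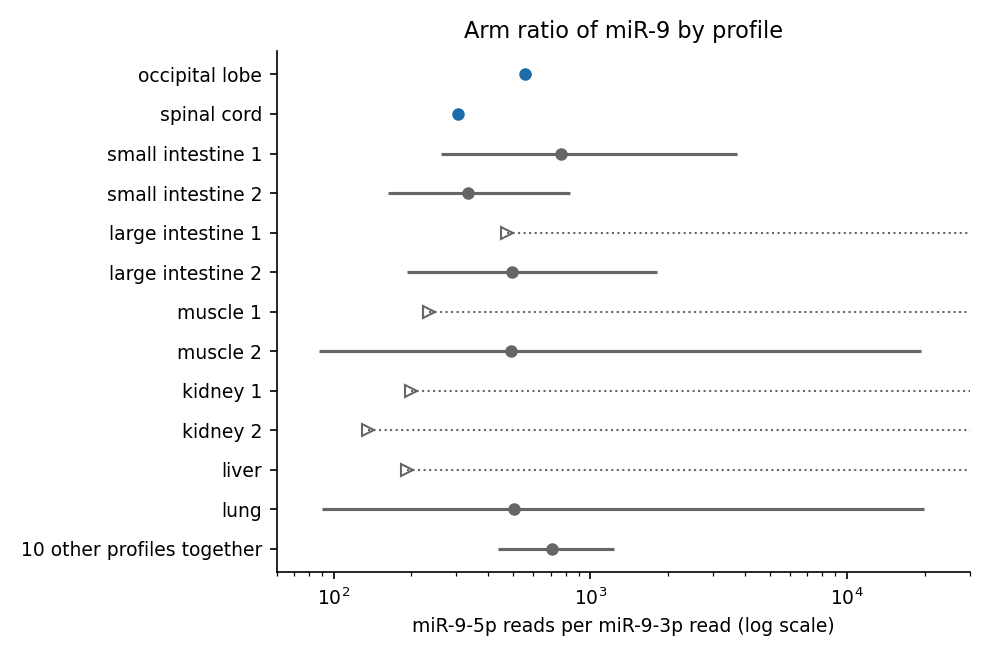
Reads of miR-9-5p per read of miR-9-3p (log scale) in each profile and in the 10 non-neural profiles together, with exact binomial intervals (confidence level 95%) as bars. Open triangles with dotted lines are lower limits, at 3 reads, for the 5 profiles without a read of miR-9-3p, and the ratios of 558 in occipital lobe and 306 in spinal cord lie within the intervals of the 5 other profiles with reads of both arms. The ratio of spinal cord lies below the interval of the 10 others together (436 to 1238) and below the limit of 474 in large intestine 1.

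The forms of the reads differed between the miRNAs, and they decide which seed the reads carry. They were taken from exact matches with both ends within 5 nucleotides of the annotated ends, a wider window chosen after the data were seen. The most frequent reads in the neural tissues are given with bases 2 to 8 in capitals.
miR-9-5p: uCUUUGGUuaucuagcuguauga
miR-9-3p: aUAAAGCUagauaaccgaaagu
miR-124a-5p: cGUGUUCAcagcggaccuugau
miR-124a-3p: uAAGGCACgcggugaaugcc
The first read is identical to the annotated miR-9-5p. It made up 62.7% of the reads of this arm in occipital lobe (565760 reads) and 63.7% in spinal cord (406058 reads). The second lacks the last base of the annotated miR-9-3p and made up 51.2% and 61.2%. The last starts 1 nucleotide downstream of the annotated 5’ end of miR-124a-3p and is 2 nucleotides shorter, with 8040 and 2544 reads (29.2% and 28.6%).

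miR-9-5p had a sharp 5’ end. Its reads started at the annotated base in 97.5% of cases in occipital lobe (Wilson interval 97.48% to 97.55%), 96.3% in spinal cord (96.26% to 96.35%) and 98.2% in the 10 other profiles together (98.0% to 98.5%). Its reads had 23 nucleotides in 62.7%, 63.7% and 63.3% of cases, and 21 nucleotides in 20.3%, 19.8% and 21.1%. In the single non-neural profiles, the share of 23 nucleotides ranged from 61.2% to 65.3% and included the values of both neural tissues. The reads in the other organs thus had nearly the same lengths as those of the neural tissues.

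miR-124a-3p reads mostly started 1 nucleotide downstream of the annotated 5’ end. The share of this start was 66.4% in occipital lobe (Wilson interval 65.8% to 66.9%), 65.8% in spinal cord (64.8% to 66.8%) and 64.9% among the 111 reads of the 10 others (55.6% to 73.1%). Only 33.5%, 34.1% and 34.2% started at the annotated base. The shift moves the seed from UAAGGCA to AAGGCAC, and the neural profiles did not differ by more than 1 percentage point in it. The lengths were spread from 18 to 22 nucleotides, with 20 nucleotides as the most frequent (39.6% and 39.1% in the neural tissues). For miR-9-3p, 25.5% of the reads in occipital lobe and 22.4% in spinal cord started 1 nucleotide downstream, which also moves the seed by 1 base. The reads of miR-9-3p with 22 nucleotides were fewer in occipital lobe (57.0%, 54.8% to 59.2%) than in spinal cord (68.0%, 66.1% to 69.9%), beyond counting error but with 1 library each.

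**Figure D5:**
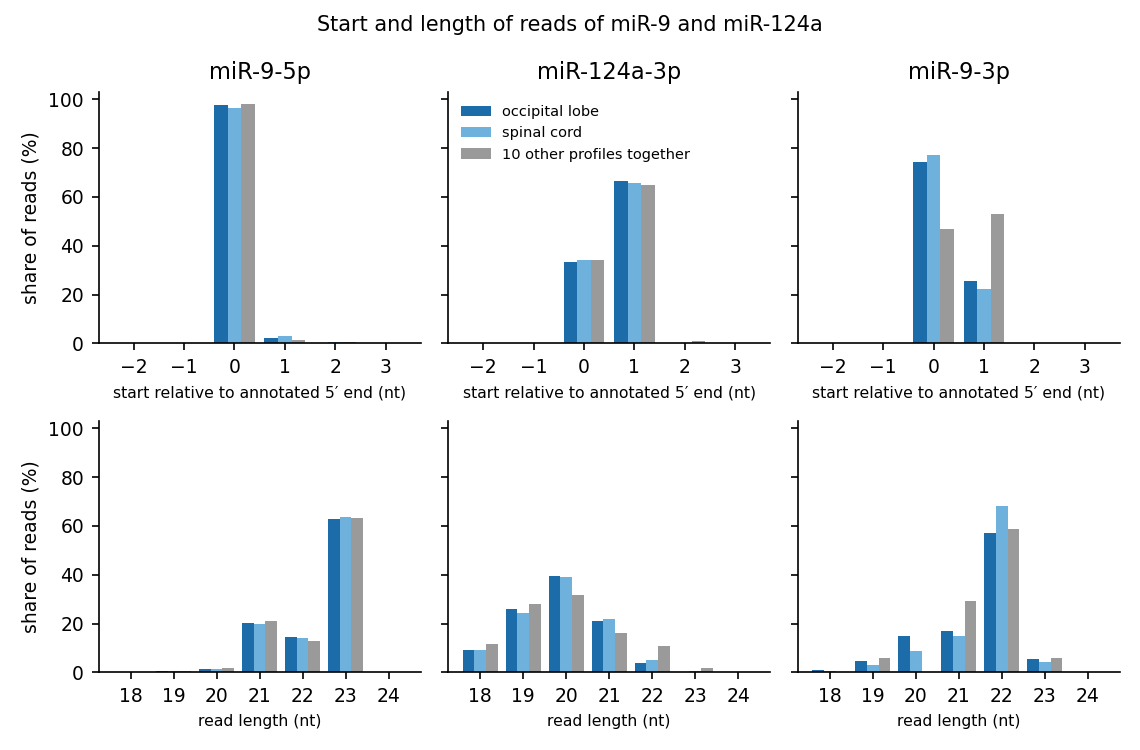
Share of reads (%) by start relative to the annotated 5’ end and by read length, both in nucleotides, for miR-9-5p, miR-124a-3p and miR-9-3p in occipital lobe, spinal cord and the 10 other profiles together. miR-9-5p reads start at 0 in 96.3% to 98.2% of cases, and miR-124a-3p reads at 1 in 64.9% to 66.4%. The bars of miR-9-3p in the 10 other profiles rest on 17 reads.

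The seeds of the members were searched among all 1219 mature sequences. The annotated seed of miR-9-3p is shared by mml-miR-3202-3p, which had 0 reads. The seed AAGGCAC of the shifted miR-124a-3p read is shared by mml-mir-506-3p, given here for comparison.
mml-mir-506-3p: uAAGGCACccuucugaguaga
This miRNA had 16 reads in all 12 profiles together, none of them in occipital lobe or spinal cord. The seeds of miR-9-5p and of the annotated miR-124a-3p were found in no other mature sequence.

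The annotated 5’ arm of miR-124a has 19 nucleotides and begins 3 nucleotides downstream of most of its reads, so that the window of 2 nucleotides left only 4 reads, all in occipital lobe. In the wider window it had 116 reads (50.4 RPTM) in occipital lobe and 102 reads (42.7 RPTM) in spinal cord, and 0 reads in each of the 10 other profiles. Of these reads, 105 of 116 and 99 of 102 started 3 nucleotides upstream of the annotated base. The 3’ arm of miR-124a was thus the main product as well, with 27552 and 8882 reads in the same window.

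Which of the copies gave the reads could be told only for those that extend into sequence that differs. Of the miR-9 reads, 901688 in occipital lobe and 637208 in spinal cord fit all 3 pre-miRNAs of miR-9. Reads of mml-mir-9-1 and mml-mir-9-2 together, which are mostly those of miR-9-3p, numbered 1994 and 2357. Only 4 and 2 reads fit mml-mir-9-1 alone, and 168 and 135 reads fit mml-mir-9-3 alone, against 6 in the 10 other profiles together. Reads that start 1 base upstream of miR-9-5p tell the copies apart, since the pre-miRNAs printed above have c there in mml-mir-9-3 and a in the other copies. Reads with an extra c numbered 159 in occipital lobe and 127 in spinal cord, and those with an extra a 44 and 47. Exact matches with either base numbered 164 and 140 in all, so that these counts also hold reads that are not exact matches. An extra g, which fits no copy, was found in 38 and 21 reads and an extra u in 16 and 14 reads, so that bases that match no copy were present at this place too. For miR-124a, 3 and 2 reads fit mml-mir-124a-1 alone, and 5 and 0 reads fit mml-mir-124a-2 alone, of 27657 and 8981 that fit all 3 copies. No read of the members fit a pre-miRNA of another family among the 832 that were read.

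Reads with 1 or 2 bases at the 3’ end that do not match the pre-miRNA were not counted above. An added base cannot be told apart here from a mismatch in the last bases of a read, and both are called tails. Such tails were carried by 13.9% of miR-9-5p reads in occipital lobe, 12.2% in spinal cord and 14.8% in the 10 others together. A single C was the most frequent tail of miR-9-5p, with 6.75% in occipital lobe (6.70% to 6.80%) and 3.21% in spinal cord (3.17% to 3.25%), while a single G was found in 1.34% and 2.79%. The C tails of the single non-neural profiles ranged from 3.39% to 8.03%, while both neural values lie within or just below this range. Of the 70683 single C tails in occipital lobe, 46011 followed a matching part that ended 3 nucleotides before the annotated end. Only 11835 reads without a tail ended there. miR-124a-3p carried tails more often, in 30.9% of reads in occipital lobe and 24.7% in spinal cord, and its most frequent single base was A (12.5% and 9.98%). Of its 4966 single A tails in occipital lobe, 3884 likewise followed a matching part that ended 3 nucleotides before the annotated end. When tails of up to 2 nucleotides were added to the counts, miR-124a-3p and miR-9-5p kept their directions.

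Lastly, the mature sequences with the most similar levels over the 12 profiles were named by the Pearson r of log2(RPTM + 1). The 12 profiles fall into 2 neural and 10 others, and r mostly reflects this split. For miR-9-5p these were mml-mir-488-3p (r = 0.976), mml-mir-129-1-5p (0.969), mml-mir-383-5p (0.962), mml-mir-135b-5p (0.961) and mml-mir-769-5p (0.952). For miR-124a-3p they were mml-mir-129-1-3p (r = 0.991), mml-mir-135b-5p (0.985), mml-mir-488-3p (0.983), mml-mir-219-2-3p (0.964) and mml-mir-758-3p (0.962). The r between miR-9-5p and miR-124a-3p themselves was 0.966. Within the neural tissues these miRNAs did not follow one order, since mml-mir-135b-5p was 2.03 times as high in occipital lobe as in spinal cord and mml-mir-219-2-3p 0.126 times.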

How the data were processed

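Small RNAs of 12 Macaca mulatta samples were sequenced by the authors with the TruSeq small RNA kit on an Illumina HiSeq sequencer. The authors kept reads without scores under 30 in the first 25 nucleotides, removed the 3’ adapter and deposited counts of unique sequences of 18 to 44 nucleotides, without normalization. Each count list is 1 library of 22118095 to 25579064 reads, and Wilson, Poisson and binomial intervals (95%) cover counting error only.

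Pre-miRNA and mature sequences were read from the study's annotation table, of which 832 pre-miRNAs were used. The annotation was available only in a shortened form, and the remaining pre-miRNAs of the study were not searched. Ranks, shares and seed matches therefore hold for the sequences read. The reads were not aligned to a genome here, so that reads from other loci were not removed. Python 3.11.15, numpy 2.4.6, pandas 2.3.3 and scipy 1.17.1 were used for matching and exact permutation tests. edgeR 4.0.16 (R 4.3.3, TMM factors, quasi-likelihood test, Benjamini-Hochberg adjustment over all 371 sequences tested, threshold 0.05) used 7 groups with both neural tissues as 1 group (residual degrees of freedom 5), and 8 tissue groups for occipital lobe against spinal cord (4), where the unreplicated tissues are assumed to vary like the 4 with 2 profiles. The standard error is the log2 fold change divided by the square root of F. DESeq2 1.42.0, other scales, filters, assignment rules, groupings, a replicate block and leaving out each profile were alternatives. The fits were tested on simulated data.

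Members and lists were chosen with earlier results of these data known. Named are all members, the lists of neuronal and oligodendrocyte miRNAs (with the highest and lowest change), the 5 most similar sequences and those sharing a seed. The miRNAs of muscle, hepatocytes, epithelium, blood cells and endothelium served as markers of the labels. Blood cell miRNAs summed to 277971 and 172705 RPTM in occipital lobe and spinal cord and 10331 to 824632 RPTM elsewhere, and endothelial miR-126 to 493, 1136 and 325 to 9051 RPTM.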

Additional observations from a re-analysis of the deposited data

Results flagged for a closer look

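Reads of the 5’ arm of miR-124a lay mostly outside the window in which reads were counted. With both ends within 5 nucleotides of the annotated ends there were 116 in occipital lobe and 102 in spinal cord, and none in the 10 other profiles.

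The reads that fit mml-mir-9-3 alone were more numerous in the neural tissues too, with 168 in occipital lobe and 135 in spinal cord, against 6 reads in the 10 other profiles together. In the wider window these profiles held 901862, 637361 and 11598 reads of miR-9-5p, so that the share was not higher in the neural tissues. Many of the 168 and 135 reads carry the extra c upstream of miR-9-5p, a place where bases that match no copy were found too.

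Reads with 1 mismatch were left out of the counts. Among the changes within the first 18 bases of miR-9-3p, counted from 1 at its annotated 5’ end, C16U stood apart in both neural tissues. It was found in 7.05% of the reads over this base in occipital lobe (120 of 1703, Wilson interval 5.93% to 8.36%) and in 7.71% in spinal cord (171 of 2217, 6.67% to 8.90%). The median of the 23 changes seen in occipital lobe was 0.126%, and that of the 26 changes in spinal cord was 0.122%. No other change in this stretch reached 1% in miR-9-3p, miR-9-5p or miR-124a-3p. Its origin was not tested.

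By Dixon's criterion, no intestine or other non-neural profile stood apart in the levels of miR-9-5p, miR-9-3p or miR-124a-3p.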

How the results depend on the processing

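The higher levels of miR-9-5p, miR-9-3p and miR-124a-3p in the neural tissues passed the threshold in each of the 8 other settings. Their direction was also kept without any single profile. miR-9-3p and miR-124a-3p pass the filter only through the neural tissues and had to differ, so that for them this adds no support. The 162 sequences that were higher became 106 with identical reads only, and the split of higher and lower sequences moved from 162 and 90 to 232 and 46 with the valid reads as scale. The 14 sequences past the threshold between occipital lobe and spinal cord (2 higher and 12 lower) became 34 with DESeq2 and 26 without the filter, and 4 to 23 without single profiles, with 4 without large intestine 1, 7 without small intestine 2, 23 without muscle 1 and 22 without muscle 2. In this comparison the log2 fold change of miR-124a-3p passed the threshold with DESeq2 (1.82) and without the filter (2.25), fell to 1.59 with identical reads only (edgeR adjusted p = 0.39), and ranged from 1.84 to 2.15 without single profiles. That of miR-9-3p turned to -0.17 with DESeq2, -0.048 with tails added and -0.31 with the valid reads as scale, and ranged from -0.16 to 0.16 without single profiles. The cause was not tested. Leaving out occipital lobe or spinal cord leaves no such comparison, and was not run. The difference in arm ratio became 2.53 with identical reads only and -0.20 with 1 read added, and ranged from -1.26 to -0.40 without single profiles. With identical reads only it is set mainly by the added reads, because nearly all non-neural profiles then have no read of miR-9-3p. The difference of miR-9-5p between the intestine and the other organs was 1.73 to 1.91 in the 4 other settings and 1.82 to 2.03 without single profiles. That of miR-124a-3p turned to -0.059 with the assigned reads as scale, and to -0.18 without muscle 2, with a range of -0.18 to 0.25.

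The deviations of profiles with the same replicate number correlated with r of -0.089 to 0.123 over the 6 pairs of tissues. Such weak correlations do not show whether the numbers mark the animals, since an animal effect may be small or differ between tissues. With a replicate block, 162 sequences were higher in the neural tissues and 17 passed the threshold between occipital lobe and spinal cord, and no call of miR-9 or miR-124a changed.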
